A study of Mus musculus with 12 samples.

Results

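Eplerenone plus lisinopril was set against prednisolone in the quadriceps of dystrophic mice. The comparison took the 3 arrays whose titles name the eplerenone combination and the 3 whose titles name prednisolone, so it used 6 of the 12 arrays of the series. All mice were utrn+/-;mdx males of the C57BL/10 strain, so every group lacked dystrophin through the mdx mutation and carried 1 mutated copy of the utrophin gene. They were 6 weeks old, and each array held RNA from a separate biological replicate. Mice of the first group received lisinopril at 20 mg/kg per day together with eplerenone at 200 mg/kg per day in medicated pellets between 4 and 6 weeks of age. Mice of the second group received prednisolone at 1.5 mg/kg per day in their water bottles over the same weeks. A further group of 3 got lisinopril at 20 mg/kg and spironolactone at 100 mg/kg per day in pellets, and 3 untreated mice ate normal chow. The combination came in pellets and prednisolone in water, and no group had pellets without drug, so drug and route cannot be told apart.

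Eplerenone blocks the mineralocorticoid receptor, the nuclear receptor for aldosterone, and lisinopril inhibits angiotensin-converting enzyme, which makes angiotensin II. Prednisolone is a synthetic glucocorticoid that acts through the glucocorticoid receptor and is a standard treatment for Duchenne muscular dystrophy, in which muscle without dystrophin degenerates, is invaded by immune cells and becomes fibrotic. Glucocorticoids are known to dampen inflammatory transcription and, in muscle, to raise genes of protein breakdown and fuel use.

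The deposited values were log2 signals of 65587 transcript clusters, of which 30412 are paired with exactly 1 gene symbol and were tested. All differences below are log2 signal of eplerenone plus lisinopril minus prednisolone, with standard errors from a limma model fitted to all 12 arrays (n = 3 arrays per group) and p-values adjusted over the 30412 clusters. A cluster is called when its adjusted p is under 0.05. The skeletal muscle label fitted its markers: the 10 identity genes, among them Acta1, Ckm and Myh4, had mean log2 signals of 19.23 to 19.25 in eplerenone plus lisinopril arrays and 19.27 to 19.34 in prednisolone arrays, near the top of the scale at 19.93. Pearson correlations over the clusters were 0.9947 to 0.9953 between eplerenone plus lisinopril arrays, 0.9950 to 0.9960 between prednisolone arrays and 0.9914 to 0.9952 across the treatments. Whole muscle was measured, so fewer cells of a type and less RNA per cell cannot be told apart.

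Muscle given eplerenone plus lisinopril had higher levels of many interferon-response, some collagen and some clock genes than muscle given prednisolone. It had lower levels of genes such as Cxcl13, Lcn2, Fbxo32, Ppp1r3c and Aldh1a1. Of the tested clusters 114 were called higher (0.375%) and 71 lower (0.233%), 185 in all (0.608%), and 8 of the higher and 28 of the lower had symbols of predicted genes or small RNAs. With the array medians made equal the split was 170 higher and 51 lower, and with quantile normalization it was 137 and 81. A fold of 2, the size that the study design names, was passed by 127 clusters upward and 84 downward (0.694% together), and 70 of these 211 were also called. The 2 sets of 3 arrays did not overlap for 9.96% of clusters in the direction of eplerenone plus lisinopril and for 9.91% in the other, and they did not overlap for any of the 185 called clusters. Single arrays mattered to these counts: higher and lower calls numbered 19 and 11 without eplerenone plus lisinopril array 1, 30 and 20 without its array 2, and 63 and 27 without its array 3. Without prednisolone array 1 they were 20 and 12, without its array 2 they were 19 and 8, and without its array 3 they were 77 and 60.

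**Figure D1:**
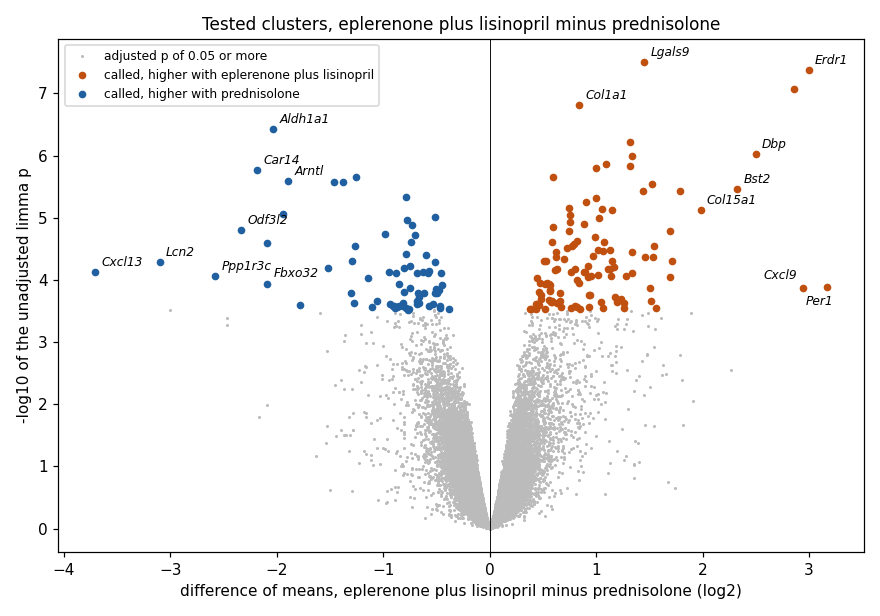
Each point is 1 of the 30412 tested clusters, with the difference of group means on the horizontal axis (log2, eplerenone plus lisinopril minus prednisolone) and -log10 of the unadjusted limma p on the vertical axis. Called clusters are coloured, 114 to the right and 71 to the left; Cxcl13 lies farthest left at -3.71 and Per1 farthest right at 3.17.

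Interferon-response genes formed the largest block of higher genes. Interferons signal through STAT and IRF factors to antiviral effectors such as the oligoadenylate synthetases, and of 32 measured genes of this list 17 were called higher with eplerenone plus lisinopril and 0 lower. The median difference of the list was 1.05, against -0.015 over all tested clusters. Arrays of 31 of the 32 members did not overlap, all in the higher direction, against 9.96% of all clusters. The mean log2 signal over the list was 8.56, 8.42 and 8.08 in eplerenone plus lisinopril arrays 1 to 3, 7.30, 7.24 and 7.29 in prednisolone arrays, and 8.46, 8.34 and 8.80 in untreated arrays.

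The promoters of 4 of the called genes that carry the core of the interferon-stimulated response element are shown, because this 10-base core, GAAANNGAAA, is the letter pattern that IRF and STAT complexes are known to bind. The sequences are RefSeq's, from GRCm38.p6, 300 bases long around the annotated gene start, with the core in capitals on whichever strand it lies. They cover chr8:71537423-71537722 (Bst2, minus strand), chr12:26456403-26456702 (Rsad2, minus strand), chr5:120907476-120907775 (Oas1a, minus strand) and chr11:78984875-78985174 (Lgals9, minus strand).
Bst2: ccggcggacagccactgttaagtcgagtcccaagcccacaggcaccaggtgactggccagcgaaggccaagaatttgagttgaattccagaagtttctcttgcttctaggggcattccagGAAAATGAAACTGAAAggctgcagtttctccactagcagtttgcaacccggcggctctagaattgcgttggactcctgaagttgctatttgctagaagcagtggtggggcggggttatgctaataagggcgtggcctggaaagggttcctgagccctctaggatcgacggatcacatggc
Rsad2: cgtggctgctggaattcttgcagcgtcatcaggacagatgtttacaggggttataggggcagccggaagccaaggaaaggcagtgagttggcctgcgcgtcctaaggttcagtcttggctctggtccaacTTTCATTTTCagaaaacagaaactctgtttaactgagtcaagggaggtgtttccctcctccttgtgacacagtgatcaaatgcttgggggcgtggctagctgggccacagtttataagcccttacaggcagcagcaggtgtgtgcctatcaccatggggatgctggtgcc
Oas1a: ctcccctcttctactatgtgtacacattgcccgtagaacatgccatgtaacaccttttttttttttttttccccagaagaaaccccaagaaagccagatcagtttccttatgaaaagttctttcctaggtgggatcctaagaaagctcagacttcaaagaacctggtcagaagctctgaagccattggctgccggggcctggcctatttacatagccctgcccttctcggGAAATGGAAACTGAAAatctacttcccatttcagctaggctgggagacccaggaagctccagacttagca
Lgals9: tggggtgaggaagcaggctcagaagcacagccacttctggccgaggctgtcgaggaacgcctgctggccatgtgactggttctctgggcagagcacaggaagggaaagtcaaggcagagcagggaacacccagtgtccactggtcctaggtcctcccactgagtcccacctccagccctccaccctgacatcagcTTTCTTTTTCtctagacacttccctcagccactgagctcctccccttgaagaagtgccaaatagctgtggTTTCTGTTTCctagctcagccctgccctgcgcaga
A gene was counted when any of its promoters in the table held the pattern. Searched on both strands, with overlapping matches counted, the core was present in 691 of 17961 tested genes that have a promoter in the table (3.85%). It was present in 18 of the 84 called higher genes with a promoter (21.4%), in 2 of 38 called lower genes (5.26%), and in 12 of 23 members of the interferon list (52.2%). Bst2, Oas1a and Lgals9 each held 2 matches and Rsad2 held 1, the first starting at -130 in Bst2, -120 in Rsad2, -20 in Oas1a and -55 in Lgals9, counted from the gene start. A match is a description of letters and says nothing about binding in these muscles.

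Bst2, which encodes tetherin, a membrane protein that holds budding viruses on the cell, had the widest difference of the list. Its log2 signal was 13.74, 13.62 and 12.60 in eplerenone plus lisinopril arrays, 11.30, 10.72 and 10.97 in prednisolone arrays, and 13.43, 13.39 and 13.39 in untreated arrays. The treated groups did not overlap, and prednisolone arrays also lay below all untreated arrays. The difference was 2.32 ± 0.27 (adjusted p = 0.00548), a 5.01-fold higher signal with eplerenone plus lisinopril. Oasl2, an oligoadenylate synthetase-like antiviral protein, stood at 9.14, 8.99 and 8.60 in eplerenone plus lisinopril arrays against 7.32, 7.31 and 7.53 in prednisolone arrays, a difference of 1.53 ± 0.17 (adjusted p = 0.00486). Both calls held with any 1 of the 6 arrays left out, the highest adjusted p being 0.0385 for each, without prednisolone array 2.

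The RNA-sensing effectors moved in the same direction. Oas2 and Oas1a, which make the second messenger that activates RNase L, were higher by 1.69 ± 0.28 (adjusted p = 0.0274) and 1.34 ± 0.22 (adjusted p = 0.0253). In Oas1a the signal was 9.46, 8.72 and 8.64 in eplerenone plus lisinopril arrays and 7.58, 7.42 and 7.82 in prednisolone arrays. Oas1g (1.16) and Oasl1 (0.79) were also called. Rsad2, the antiviral enzyme viperin, read 9.42, 9.57 and 9.23 in eplerenone plus lisinopril arrays and 7.72, 7.79 and 7.64 in prednisolone arrays, a gap several times the spread within either group. Eif2ak2, the double-stranded RNA-activated kinase PKR, differed by 1.07 ± 0.15, the RNA sensor gene Ddx58 (RIG-I) by 0.94 ± 0.17 and the nucleic acid sensor Zbp1 by 1.13 ± 0.17. The dynamin-like GTPase Mx1 read 7.03, 6.62 and 6.57 in eplerenone plus lisinopril arrays against 5.69, 5.82 and 5.76 in prednisolone arrays, a 1.99-fold difference. Oas1a and Oas1g are close paralogs that neighbour each other in the genome, as are Oasl2 and Oasl1, so cross-hybridisation between members of a pair was not tested.

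Regulators of the pathway were called as well. Irf7, the transcription factor that amplifies type I interferon production, read 9.42, 8.88 and 8.38 in eplerenone plus lisinopril arrays and 7.51, 7.14 and 7.35 in prednisolone arrays (1.56 ± 0.30, adjusted p = 0.049). Stat2, a subunit of the factor that interferon activates, differed by 1.26 ± 0.24 (adjusted p = 0.049). Usp18, which removes ISG15 from proteins and restrains interferon receptor signalling, differed by 1.53 ± 0.23 (adjusted p = 0.0204). Parp14 (1.06), Xaf1 (1.15) and Rtp4 (1.04) complete the 17. Of the members not called, Ifit1 stood at 1.62 (adjusted p = 0.144), Herc6 at 0.95 (adjusted p = 0.0509) and Isg15, the ubiquitin-like modifier itself, at 0.26 (adjusted p = 0.702).

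Of the 17 called members 2 kept the call without eplerenone plus lisinopril array 1, 5 without its array 2 and 13 without its array 3, and 2, 2 and 9 kept it without prednisolone arrays 1, 2 and 3. Against untreated muscle, with which each treated group was also compared, 28 of the 32 members were lower in prednisolone arrays (963 of all clusters were, 3.17%) and 0 of 32 were called in either direction in eplerenone plus lisinopril arrays (9 of all clusters were, 0.0296%). These comparisons share arrays with the main one. For Bst2 the difference from untreated was -2.41 ± 0.27 with prednisolone (adjusted p = 0.00217) and -0.09 with eplerenone plus lisinopril (adjusted p = 0.919). Mean signals of 20 T and NK cell markers were 6.03 to 6.21 in eplerenone plus lisinopril arrays and 5.81 to 5.87 in prednisolone arrays, with 1 of 20 called higher, Thy1 (0.85 ± 0.16, adjusted p = 0.0493). Those of 25 macrophage markers overlapped, at 10.89 to 11.47 in eplerenone plus lisinopril arrays and 10.80 to 11.19 in prednisolone arrays, with 0 of 25 called and a median of 0.18. The part of these cells in the interferon result was not tested.

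**Figure D2:**
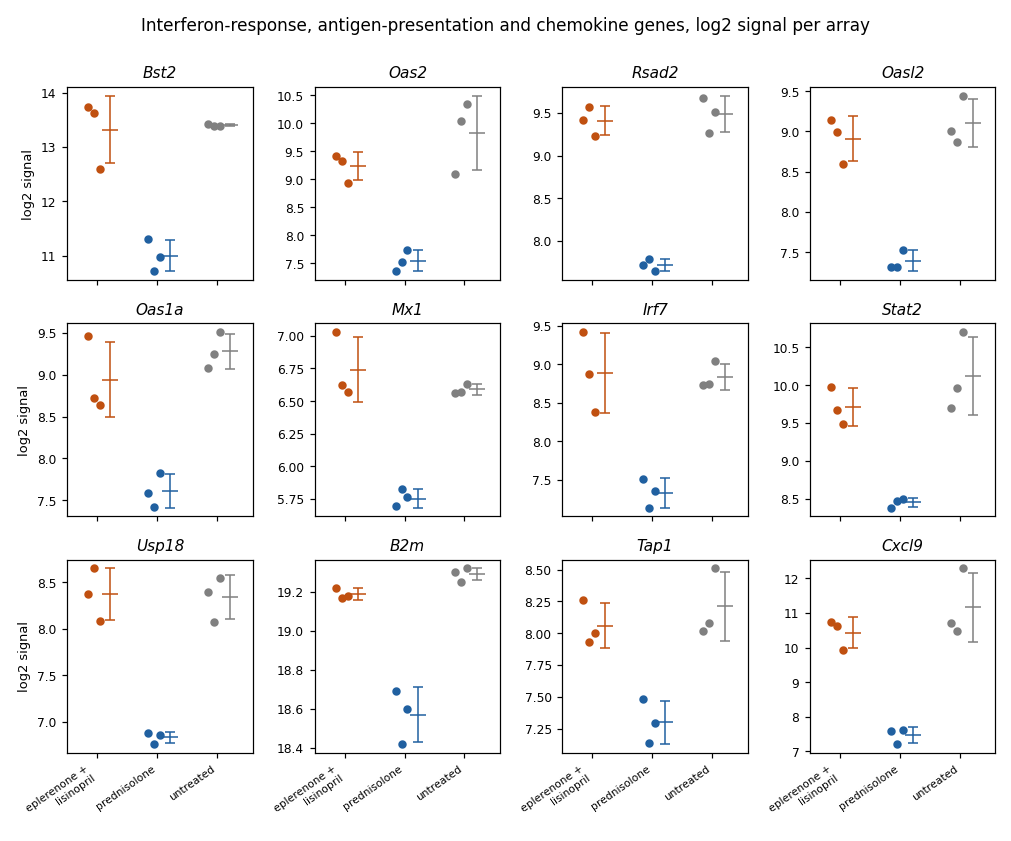
Log2 signal (vertical axes, each panel with its own range) of 12 interferon-response, antigen-presentation and chemokine genes. Points are single arrays in the order eplerenone plus lisinopril, prednisolone and untreated, and the bars beside them are the mean ± SD (n = 3); in every panel the prednisolone arrays lie below the eplerenone plus lisinopril arrays.

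The interferon-induced GTPases, which attack the vacuoles of intracellular microbes, had the same median, 1.05, but 0 of 10 were called. All 10 had non-overlapping arrays in the higher direction, against 9.96% of all clusters. Gbp9 read 10.37, 10.81 and 10.18 in eplerenone plus lisinopril arrays and 9.20, 9.42 and 9.36 in prednisolone arrays (1.13 ± 0.27, adjusted p = 0.105), and Gbp3 differed by 1.18 ± 0.28 (adjusted p = 0.109). Against untreated muscle 7 of the 10 were called lower with prednisolone, as were 3.17% of all clusters. With eplerenone plus lisinopril 0 of the 10 were called, and only 0.0296% of all clusters were.

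Among antigen-presentation genes 4 of 19 were called higher and 0 lower, with a median of 0.57. B2m, the light chain of class I molecules, read 19.22, 19.17 and 19.18 in eplerenone plus lisinopril arrays, 18.69, 18.42 and 18.60 in prednisolone arrays, and 19.30, 19.25 and 19.32 in untreated arrays. Its difference was 0.62 ± 0.09 (adjusted p = 0.0188), at a level near the top of the scale. The peptide transporter subunit Tap1 (0.76 ± 0.15, adjusted p = 0.049) and the immunoproteasome subunits Psmb8 (0.57 ± 0.10, adjusted p = 0.0321) and Psmb10 (0.57 ± 0.10, adjusted p = 0.0367) made up the rest. Class II genes were not called, H2-Ab1 standing at 0.94 (adjusted p = 0.184) and H2-Eb1 at 1.19 (adjusted p = 0.119). None of the 4 kept its call without eplerenone plus lisinopril arrays 1, 2 or 3 or prednisolone array 2, and 1 kept it without prednisolone arrays 1 or 3.

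Chemokine genes moved in both directions. Of 40 cytokines and chemokines 1 was called higher and 1 lower, and the median was 0.08. Cxcl9, which interferon gamma induces and which attracts activated T cells, read 10.75, 10.61 and 9.92 in eplerenone plus lisinopril arrays, 7.60, 7.22 and 7.63 in prednisolone arrays and 10.72, 10.48 and 12.29 in untreated arrays. Prednisolone arrays lay below both other groups, and the difference was 2.94 ± 0.51 (adjusted p = 0.0356). Cxcl13, the attractant of B cells to follicles, ran the other way, with 8.41, 7.59 and 8.22 in eplerenone plus lisinopril arrays, 12.57, 11.10 and 11.66 in prednisolone arrays and 7.33, 8.89 and 9.29 in untreated arrays. It was the widest difference in either direction, -3.71 ± 0.60 (adjusted p = 0.0253), a 13.0-fold higher signal with prednisolone. B cell markers showed 0 of 12 called, with mean signals of 5.24 to 5.44 in eplerenone plus lisinopril arrays and 5.19 to 5.30 in prednisolone arrays. Neither chemokine kept its call when any 1 of the 6 arrays was left out, with adjusted p between 0.0593 and 0.164 for Cxcl9 and between 0.0591 and 0.115 for Cxcl13.

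Other genes, some of them interferon-inducible, were among the 15 widest higher differences. Ifi213 and Ifi208, members of the interferon-inducible p200 family, differed by 1.72 ± 0.27 (adjusted p = 0.022) and 1.51 ± 0.28 (adjusted p = 0.0468), and Rnf213, a large ubiquitin ligase that interferon induces, by 1.55 ± 0.23 (adjusted p = 0.017). Erdr1 read 14.98, 14.86 and 14.70 in eplerenone plus lisinopril arrays, 12.11, 11.85 and 11.59 in prednisolone arrays and 14.90, 15.37 and 15.20 in untreated arrays. This 3.00 ± 0.22 difference (adjusted p = 0.000637) kept its call with any 1 array left out. Aplnr, also among the 15, differed by 1.51 (adjusted p = 0.0356) and lost its call whichever array was left out (adjusted p from 0.0582 to 0.146). Some called genes stood beside each other on the chromosome: 24 of the 181 called genes that could be placed lay in 11 runs of neighbours with at most 3 other annotated genes between them, such as Ifi213, Ifi209 and Ifi208, Trim30a and Trim30d, and Tap1 and Psmb8. These runs were chosen after their values were seen, and members of one family may share probe signal. No such count was made over all tested genes, so whether 24 of 181 is more than gene order alone gives was not tested.

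Several fibrillar collagen genes and some basement membrane genes were called higher with eplerenone plus lisinopril. Of 37 measured matrix genes 9 were called higher and 0 lower, and the median was 0.49. The arrays of 27 did not overlap in the higher direction and those of 1 in the lower, against 9.96% and 9.91% of all clusters. The list's mean signal was 12.69, 12.73 and 12.70 in eplerenone plus lisinopril arrays, 12.17, 12.19 and 12.26 in prednisolone arrays and 12.73, 12.64 and 12.81 in untreated arrays.

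Col1a1, the main chain of type I collagen, read 17.14, 17.00 and 17.08 in eplerenone plus lisinopril arrays, 16.21, 16.20 and 16.28 in prednisolone arrays and 16.90, 16.88 and 16.88 in untreated arrays. The spread within each group was small, and the difference of 0.84 ± 0.07 (adjusted p = 0.00118) kept its call with any 1 array left out. Its partner chain Col1a2 differed by 0.59 ± 0.08 (adjusted p = 0.0115) and Col3a1, the collagen of distensible tissue, by 0.74 ± 0.10 (adjusted p = 0.0126). The fibril-regulating collagens Col5a1 (0.53 ± 0.08) and Col14a1 (1.13 ± 0.18) were called too. Col15a1, a collagen of the muscle and vessel basement membrane zone, read 10.82, 11.08 and 10.64 in eplerenone plus lisinopril arrays, 8.55, 9.03 and 9.01 in prednisolone arrays and 10.85, 9.90 and 10.33 in untreated arrays. It had the widest difference of the list, 1.98 ± 0.25 (adjusted p = 0.00822). The basement membrane linker Nid2 differed by 1.14 ± 0.19, the matricellular genes Postn by 0.89 ± 0.14 and Sparc by 0.43 ± 0.08.

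Of the members not called, Col6a3 stood at 0.73 (adjusted p = 0.0527), Fn1, which encodes fibronectin, at 0.59 (adjusted p = 0.0956), and the proteoglycan Dcn at -0.03 (adjusted p = 0.938). The basement membrane genes Col4a1 (0.56, adjusted p = 0.3), Lamb1 (0.49, adjusted p = 0.314) and Nid1 (0.40, adjusted p = 0.543) were not called either. Negative differences were seen in 4 of the 37: Lox (-0.45), Eln (-0.41), Lama2 (-0.20) and Dcn. Of the 9 called genes 1, 4 and 4 kept the call without eplerenone plus lisinopril arrays 1, 2 and 3, and 1, 2 and 6 without prednisolone arrays 1, 2 and 3. Against untreated muscle 12 of the 37 were called lower with prednisolone, as were 3.17% of all clusters. With eplerenone plus lisinopril 0 of the 37 were called, and only 0.0296% of all clusters were. Col1a1 differed from untreated by -0.66 ± 0.07 with prednisolone (adjusted p = 0.00208) and by 0.18 with eplerenone plus lisinopril (adjusted p = 0.313). Fibroblast markers had mean signals of 11.75 to 11.85 in eplerenone plus lisinopril arrays and 11.47 to 11.59 in prednisolone arrays, with Col15a1, which is in both lists, as the 1 of 14 called. Of 19 endothelial markers 15 had positive differences. The arrays of 9 did not overlap in the higher direction and those of 2 in the lower, against 9.96% and 9.91% of all clusters. The junction gene Cdh5 stood at 1.28 (adjusted p = 0.0581) and the guidance receptor gene Robo4 at 0.77 (adjusted p = 0.0567). Lyve1 was the 1 called, lower. Mean signals of the 19 markers overlapped, at 8.68 to 9.30 in eplerenone plus lisinopril arrays and 8.58 to 8.81 in prednisolone arrays. The part of fibroblasts and endothelium in the matrix result was not tested. Matrix proteases and their inhibitors showed 0 of 17 called (median 0.14) and transforming growth factor beta pathway genes 0 of 20 (median 0.07).

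The called circadian clock genes split by the arm of the loop they belong to. CLOCK or NPAS2 pairs with the product of Arntl (BMAL1) to activate the period, Nr1d and Dbp genes, whose products in turn repress the activators or drive output genes. Of 13 core genes 3 were called higher with eplerenone plus lisinopril (Per1, Per3 and Nr1d2) and 3 lower (Arntl, Npas2 and Clock). Of 6 output factors 1 was called higher, Dbp. The labels give no hour of tissue collection, so clock time and treatment cannot be told apart.

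Per1 had the widest higher difference of all named genes. It read 9.21, 9.95 and 8.77 in eplerenone plus lisinopril arrays, 6.19, 6.29 and 5.95 in prednisolone arrays and 10.82, 8.90 and 8.81 in untreated arrays. The difference was 3.17 ± 0.55 (adjusted p = 0.0349), an 8.98-fold higher signal with eplerenone plus lisinopril, and adjusted p ran between 0.0593 and 0.135 with 1 array left out. Per1 is also a textbook glucocorticoid-induced gene, and its signal was lowest in the prednisolone arrays. Per3, another period gene, read 7.59, 7.87 and 7.35 in eplerenone plus lisinopril arrays against 6.15, 6.16 and 6.19 in prednisolone arrays, 1.44 ± 0.17 (adjusted p = 0.00548). Dbp, the clock's output activator, read 10.54, 10.69 and 9.81 in eplerenone plus lisinopril arrays, 7.80, 8.03 and 7.72 in prednisolone arrays and 9.66, 8.76 and 8.96 in untreated arrays. Its difference of 2.50 ± 0.25 (adjusted p = 0.0039) and that of Per3 kept their calls with any 1 array left out.

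The activators lay on the other side. Arntl read 8.27, 8.43 and 8.88 in eplerenone plus lisinopril arrays, 10.41, 10.42 and 10.42 in prednisolone arrays and 8.68, 8.92 and 8.93 in untreated arrays, a difference of -1.89 ± 0.21 (adjusted p = 0.00479). Prednisolone arrays were highest and tightly grouped, and this call held with any 1 array left out. Clock differed by -0.51 ± 0.07 (adjusted p = 0.0096) and Npas2, which can stand in for CLOCK, by -1.28 ± 0.24 (adjusted p = 0.0475). The repressor gene Nr1d2 (REV-ERB beta) stood at 1.28 ± 0.21 (adjusted p = 0.0268), while Nr1d1 (0.13), Per2 (0.71) and Cry1 (-0.43) were not called. Of the 6 core calls, 2, 3 and 3 were kept without eplerenone plus lisinopril arrays 1, 2 and 3, and 2, 2 and 3 without prednisolone arrays 1, 2 and 3.

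The E-box, CACGTG, is the letter pattern that CLOCK and BMAL1 are known to bind, and 1 of the 2 Per1 promoters in the table is shown for it; the other, at chr11:69099902-69100201, holds none. The 300 bases are RefSeq's, at chr11:69098699-69098998 on the plus strand of GRCm38.p6, with the E-box in capitals at -166 from the gene start.
Per1: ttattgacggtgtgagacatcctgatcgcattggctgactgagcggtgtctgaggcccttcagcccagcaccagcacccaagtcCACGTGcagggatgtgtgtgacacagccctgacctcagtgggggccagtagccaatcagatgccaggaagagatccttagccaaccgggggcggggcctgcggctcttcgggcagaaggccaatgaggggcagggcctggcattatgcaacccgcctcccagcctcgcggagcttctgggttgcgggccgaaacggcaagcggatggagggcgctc
The E-box was found in 1609 of 17961 tested genes with a promoter in the table (8.96%), in 3 of 84 called higher genes (3.57%) and in 2 of 38 called lower genes (5.26%). Of 11 core clock genes with a promoter 2 held it, Per1 and Cry1.

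**Figure D3:**
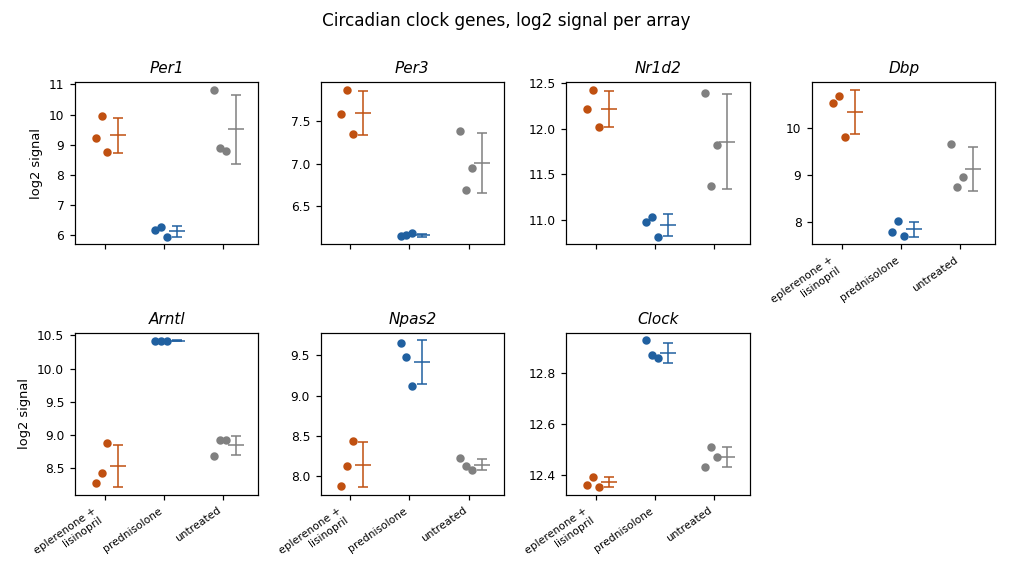
Log2 signal (vertical axes, each panel with its own range) of the 6 called core clock genes and Dbp. Points are single arrays in the order eplerenone plus lisinopril, prednisolone and untreated, with mean ± SD (n = 3) beside them; prednisolone arrays are lowest for Per1, Per3, Nr1d2 and Dbp and highest for Arntl, Npas2 and Clock.

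Genes that glucocorticoids are known to induce did not share a direction. Of 34 measured, 1 was called higher with eplerenone plus lisinopril (Per1) and 3 lower (Fbxo32, Lpin1 and Lcn2), with a median of -0.05. Against untreated muscle 10 of the 34 were called lower with prednisolone and 2 higher (3.17% and 3.22% of all clusters were). With eplerenone plus lisinopril 0 were called (0.0296% of all clusters were). The list's mean signal was 9.82 to 10.09 in eplerenone plus lisinopril arrays, 9.82 to 10.06 in prednisolone arrays and 10.30 to 10.72 in untreated arrays. Fkbp5, a receptor co-chaperone and common marker of glucocorticoid exposure, read 6.80, 7.48 and 7.09 in eplerenone plus lisinopril arrays, 8.53, 7.96 and 7.95 in prednisolone arrays and 6.88, 7.47 and 8.13 in untreated arrays. The treated groups did not overlap, but the difference was not called (-1.03 ± 0.31, adjusted p = 0.191). Tsc22d3, the glucocorticoid-induced leucine zipper, read 9.85, 10.32 and 9.68 in eplerenone plus lisinopril arrays, 8.96, 8.82 and 9.0 in prednisolone arrays and 11.23, 10.31 and 10.68 in untreated arrays, so prednisolone arrays were lowest (1.02 ± 0.31, adjusted p = 0.185). The pyruvate dehydrogenase kinase gene Pdk4 stood at -2.47 (adjusted p = 0.0559) and the metallothionein Mt2 at -1.09 ± 0.25 (adjusted p = 0.0856). Zbtb16 (-0.30, adjusted p = 0.877) and Klf15 (0.01, adjusted p = 0.987) had overlapping arrays. Klf15 was at -0.02 after quantile normalization.

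The receptors and targets of the drugs were not called. The glucocorticoid receptor gene Nr3c1 stood at 0.36 ± 0.15 (adjusted p = 0.353), the mineralocorticoid receptor gene Nr3c2 at -0.06 ± 0.16 (adjusted p = 0.929) and Ace, which encodes angiotensin-converting enzyme, at -0.18 ± 0.24 (adjusted p = 0.839). Hsd11b1, whose enzyme regenerates active glucocorticoid, stood at -0.74 ± 0.45 (adjusted p = 0.571), with 1 prednisolone array at 8.21 and the others at 6.39 and 6.35. Of 16 genes of the renin, angiotensin and kinin system 1 was called, lower: Agt, the precursor of the angiotensins. It read 6.20, 6.61 and 6.68 in eplerenone plus lisinopril arrays, 7.64, 7.44 and 7.14 in prednisolone arrays and 6.59, 6.10 and 6.31 in untreated arrays (-0.91 ± 0.17, adjusted p = 0.0488). The angiotensin receptor gene Agtr1a stood at 0.03 (adjusted p = 0.972), and at -0.01 after quantile normalization. Of 18 genes that the mineralocorticoid receptor induces in other tissues, Per1 was called higher and Lcn2 lower, and Sgk1, its classic kinase target, stood at 0.85 ± 0.28 (adjusted p = 0.232). The Agt call was lost without every array but prednisolone array 3 (adjusted p from 0.0466 to 0.195).

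Called genes of muscle breakdown and fuel storage that were lower with eplerenone plus lisinopril included Fbxo32, Ppp1r3c, Lpin1 and Plin5. Fbxo32, the atrophy ubiquitin ligase atrogin-1, read 10.16, 10.65 and 10.80 in eplerenone plus lisinopril arrays, 12.79, 12.54 and 12.55 in prednisolone arrays and 11.07, 10.63 and 11.63 in untreated arrays. The difference was -2.09 ± 0.36 (adjusted p = 0.0321), a 4.25-fold higher signal with prednisolone, and adjusted p ran between 0.0612 and 0.135 with 1 array left out. It was the 1 of 27 atrophy genes called. Trim63, the ubiquitin ligase MuRF1 that usually rises beside it, stood at -0.69 ± 0.26 (adjusted p = 0.298), its arrays not overlapping. Of the 27 atrophy genes, 12 had non-overlapping arrays in the lower direction and 3 in the higher, against 9.91% and 9.96% of all clusters. Ppp1r3c, which targets protein phosphatase 1 to glycogen, read 11.70, 12.87 and 12.18 in eplerenone plus lisinopril arrays, 15.56, 14.82 and 14.09 in prednisolone arrays and 13.46, 13.00 and 13.21 in untreated arrays. At -2.57 ± 0.43 (adjusted p = 0.0268) it was the 1 of 22 glucose and glycogen genes called. It kept the call without eplerenone plus lisinopril array 2 or prednisolone array 3 but not without the others (adjusted p up to 0.126, without prednisolone array 2). Of the 22 genes 19 had negative differences. Non-overlapping arrays were seen for 9 in the lower direction and 1 in the higher, against 9.91% and 9.96% of all clusters.

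Lpin1, a phosphatidate phosphatase and coactivator of lipid metabolism, read 11.48, 11.98 and 11.79 in eplerenone plus lisinopril arrays, 13.10, 13.01 and 12.90 in prednisolone arrays and 12.11, 12.27 and 12.41 in untreated arrays. The untreated arrays lay between the treated groups, and the difference of -1.25 ± 0.14 (adjusted p = 0.00479) kept its call with any 1 array left out. Plin5, a lipid droplet protein, was the 1 of 30 fatty acid oxidation genes called, with 6.81, 6.78 and 6.43 in eplerenone plus lisinopril arrays against 7.45, 7.46 and 7.43 in prednisolone arrays (-0.77 ± 0.10, adjusted p = 0.0101). It was lost without prednisolone array 1 or 2 (adjusted p up to 0.0644). In that list 29 of 30 differences were negative and the median was -0.39. The arrays of 14 of the 30 did not overlap, all in the lower direction, against 9.91% of all clusters. Among 35 mitochondrial genes 33 differences were negative, 0 were called and the median was -0.17. The arrays of 6 of the 35 did not overlap, all in the lower direction. Against untreated muscle, where 979 of all clusters were higher with prednisolone (3.22%), 13 of the 30 and 10 of the 35 were called higher with prednisolone. With eplerenone plus lisinopril 0 of either list were called, and only 0.0296% of all clusters were. The fatty acid oxidation list averaged 11.18, 11.30 and 11.17 in eplerenone plus lisinopril arrays and 11.89, 11.49 and 11.61 in prednisolone arrays. Adipocyte markers averaged 9.71, 10.28 and 10.66 against 11.73, 9.57 and 10.06, so prednisolone array 1 was highest in both. The part of fat cells in this result was not tested.

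Fibre type genes were not called, and most slow fibre genes had negative differences. Of 20 slow fibre genes 18 had negative differences and 0 were called, with a median of -0.45. The arrays of 8 of these 20 did not overlap, all in the lower direction, against 9.91% of all clusters. Smtnl1 read 7.28, 7.07 and 7.02 in eplerenone plus lisinopril arrays, 8.35, 9.23 and 8.58 in prednisolone arrays and 7.13, 7.53 and 6.91 in untreated arrays (-1.60 ± 0.31, adjusted p = 0.0521). The mean signal over the list was 10.35, 10.01 and 9.80 in eplerenone plus lisinopril arrays and 10.24, 10.98 and 10.79 in prednisolone arrays, so prednisolone array 1 lay below eplerenone plus lisinopril array 1. Of 20 fast fibre genes 0 were called and the median was -0.01, but many lay near the top of the scale in both groups, such as Myh4 and Atp2a1 at a mean log2 signal of 19.92 in each, where a difference could not show. The arrays of 6 of the 20 did not overlap, all in the lower direction, against 9.91% of all clusters. Among them were the sarcomere gene Myoz1 at -0.69 (adjusted p = 0.0878) and the calcium channel gene Cacna1s at -0.48 (adjusted p = 0.259). Embryonic myosin Myh3, a mark of regenerating fibres, stood at -0.11 ± 0.58 (adjusted p = 0.968). Dmd stood at -0.47 ± 0.18 (adjusted p = 0.304) and Utrn at 0.09 ± 0.11 (adjusted p = 0.803), and 0 of 22 dystrophin complex or membrane repair genes were called. Igf1, the muscle growth factor, was called higher, with 11.05, 11.08 and 11.22 in eplerenone plus lisinopril arrays against 10.43, 10.54 and 10.53 in prednisolone arrays (0.62 ± 0.09, adjusted p = 0.0204). It kept that call without prednisolone array 3, and adjusted p ran to 0.108 without the others.

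Further genes with wide lower differences belong to no common pathway in the lists. Aldh1a1, a retinaldehyde dehydrogenase that makes retinoic acid, read 11.10, 11.49 and 10.76 in eplerenone plus lisinopril arrays, 13.49, 12.87 and 13.09 in prednisolone arrays and 10.70, 10.58 and 10.39 in untreated arrays. Prednisolone arrays lay above all others, and the difference was -2.03 ± 0.19 (adjusted p = 0.00231). Car14, a membrane carbonic anhydrase, read 7.19, 7.86 and 7.43 in eplerenone plus lisinopril arrays, 9.99, 9.91 and 9.11 in prednisolone arrays and 7.39, 7.23 and 7.18 in untreated arrays, -2.18 ± 0.24 (adjusted p = 0.00435). Inmt, an indolethylamine methyltransferase, differed by -1.94 ± 0.25 (adjusted p = 0.00908), and Ttll7, a tubulin polyglutamylase, by -1.38 ± 0.16 (adjusted p = 0.00479). These 4 calls were kept with any 1 array left out.

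Lcn2, an iron-sequestering protein of neutrophils and injured epithelium, read 5.33, 5.29 and 5.61 in eplerenone plus lisinopril arrays, 9.44, 8.12 and 7.97 in prednisolone arrays and 5.58, 6.96 and 7.65 in untreated arrays. It was 8.55-fold higher with prednisolone (-3.10 ± 0.48, adjusted p = 0.0221) and was the 1 of 18 neutrophil markers called, of which 12 were negative. Its eplerenone plus lisinopril signals lay below the array medians of tested clusters, 5.70 to 5.81, so the size of this fold is uncertain. The muscle lysine methyltransferase Mettl21e differed by -2.09 ± 0.30 (adjusted p = 0.0164), the zinc transporter gene Slc30a2 by -1.52 ± 0.24 (adjusted p = 0.0253) and Odf3l2 by -2.33 ± 0.32 (adjusted p = 0.0125). Lyve1, a hyaluronan receptor of lymphatic vessels and some macrophages, read 9.71, 10.53 and 10.22 in eplerenone plus lisinopril arrays, 11.85, 11.04 and 11.47 in prednisolone arrays and 11.07, 11.25 and 11.57 in untreated arrays. Here the eplerenone plus lisinopril arrays lay below both other groups (-1.30 ± 0.23 from prednisolone, adjusted p = 0.039), although the difference from untreated, -1.14, was not called (adjusted p = 0.134). Ctxn3 (-1.78) and the kinase gene Sbk2 (-1.29) complete the 15. Of these 15, 5, 7 and 8 kept the call without eplerenone plus lisinopril arrays 1, 2 and 3, and 6, 5 and 10 without prednisolone arrays 1, 2 and 3. Of the 15 widest higher ones, 4, 5 and 11 kept it without eplerenone plus lisinopril arrays 1, 2 and 3, and 4, 5 and 8 without prednisolone arrays 1, 2 and 3.

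A glucocorticoid response element, GNACANNNTGTNC, was searched in the same promoters, and Car14 is shown because it was among the widest lower genes and held a match. Its 300 bases, again RefSeq's, lie at chr3:95904636-95904935 on the minus strand of GRCm38.p6, with the element in capitals at -225.
Car14: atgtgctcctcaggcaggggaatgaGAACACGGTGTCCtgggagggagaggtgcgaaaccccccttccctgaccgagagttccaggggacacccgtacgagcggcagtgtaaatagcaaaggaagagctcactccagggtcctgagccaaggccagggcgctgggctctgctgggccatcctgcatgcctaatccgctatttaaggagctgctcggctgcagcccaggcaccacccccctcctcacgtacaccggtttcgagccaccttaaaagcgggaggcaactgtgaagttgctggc
The pattern was present in 97 of 17961 tested genes with a promoter in the table (0.54%), in 3 of 38 called lower genes (7.89%: Car14, Gnmt and Lrrc52) and in 0 of 84 called higher genes. Of 29 glucocorticoid-responsive genes with a promoter 3 held it (10.3%: Mt1, Sgk1 and Trim63), and of their 3 called members with a promoter 0 did. No match in these windows says only that the letters are not there.

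**Figure D4:**
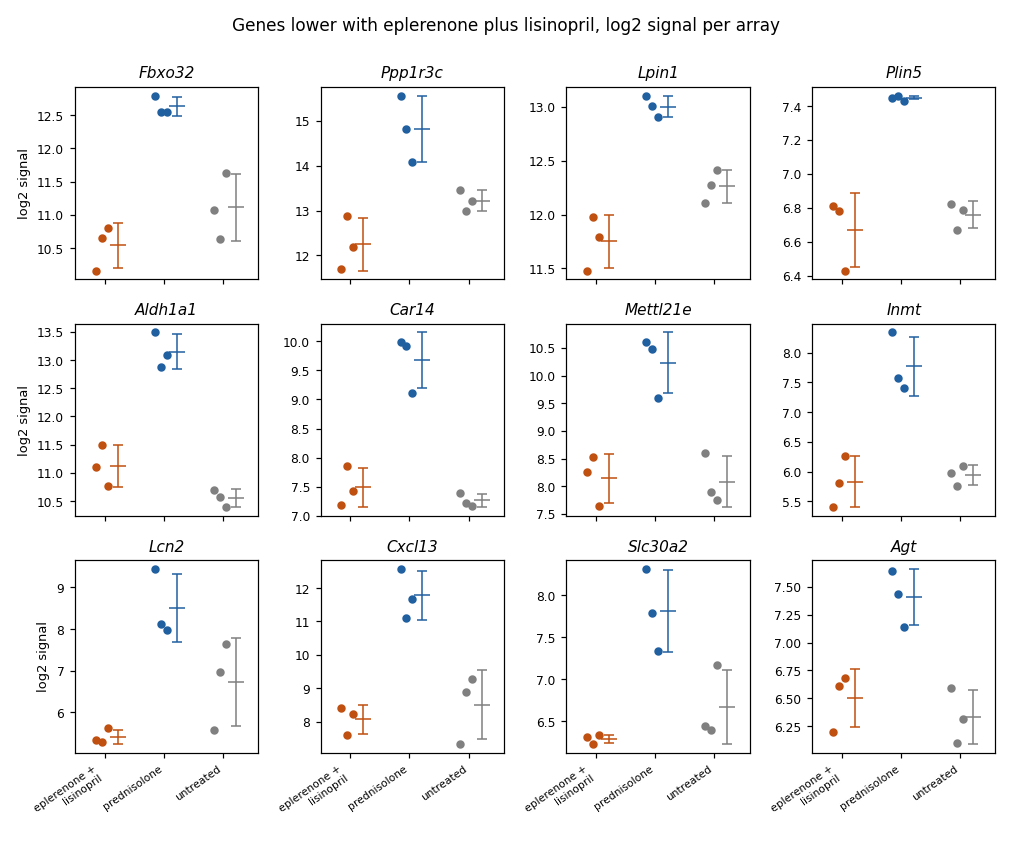
Log2 signal (vertical axes, each panel with its own range) of 12 called genes that were lower with eplerenone plus lisinopril than with prednisolone. Points are single arrays in the order eplerenone plus lisinopril, prednisolone and untreated, with mean ± SD (n = 3) beside them; in every panel the prednisolone arrays lie above the eplerenone plus lisinopril arrays.

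Some calls did not turn on any single array. Of the 149 called genes followed through each alternative, 21 stayed past the threshold with each of the 6 arrays left out in turn. This set was chosen after its values were seen. Beside those above it held Lgals9, Trim30d, Phf11b, Parp12, Ret, Plxnd1, Fscn1, Hspg2 and Crtap among the higher genes. Lgals9, which encodes the immune-regulating lectin galectin-9, read 13.28, 13.42 and 13.33 in eplerenone plus lisinopril arrays, 11.89, 11.84 and 11.95 in prednisolone arrays and 13.48, 13.27 and 13.60 in untreated arrays (1.45 ± 0.11, adjusted p = 0.000637). Hspg2, the basement membrane proteoglycan perlecan, differed by 0.91 ± 0.11 (adjusted p = 0.00704), and Ret, the receptor tyrosine kinase for glial-derived neurotrophic factors, by 1.32 ± 0.14 (adjusted p = 0.00435).

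The spironolactone combination was a further point of comparison, since it swaps one mineralocorticoid receptor antagonist for another, at a different dose. Set against the same prednisolone arrays, spironolactone plus lisinopril had 137 clusters called higher (0.45%) and 113 lower (0.372%). Eplerenone plus lisinopril against spironolactone plus lisinopril itself gave 0 called clusters in limma (0%). It also gave 0 without moderation or in a fit of the 6 arrays alone. In limma 1365 of the 30412 clusters had an unadjusted p under 0.05. That is fewer than the share of 0.05 that this threshold passes on average when nothing differs. Doses differ, so the values are given side by side with unadjusted 95% intervals. Bst2 averaged 13.23 with spironolactone plus lisinopril, and eplerenone plus lisinopril differed from it by 0.09 (interval -0.51 to 0.68). For Aldh1a1 that difference was -0.04 (-0.46 to 0.38), and for Car14 it was 0.05 (-0.47 to 0.57). Clock genes had intervals that left out 0 before adjustment, Per3 at -0.65 (-1.03 to -0.28) and Npas2 at 1.02 (0.49 to 1.54), with an adjusted p of 0.998 for each. The interferon list averaged 8.04, 7.67 and 8.13 in spironolactone plus lisinopril arrays. It averaged 8.56, 8.42 and 8.08 in eplerenone plus lisinopril arrays and 7.30, 7.24 and 7.29 in prednisolone arrays. The matrix list averaged 12.47, 12.46 and 12.72, against 12.69, 12.73 and 12.70 and 12.17, 12.19 and 12.26, in the same order. In both lists spironolactone plus lisinopril arrays lay above prednisolone arrays and overlapped those with eplerenone plus lisinopril.

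Across all 44 lists, 19 held a called member and 25 held none. Immediate-early transcription factors had 0 of 25 called and a median of 0.33, with Nr4a1 at 1.91 ± 0.60 (adjusted p = 0.205). Positive differences were seen in 24 of the 25, and the arrays of 10 did not overlap, all in the higher direction, against 9.96% of all clusters. Cell cycle genes had 0 of 22 called and a median of 0.27, and cholesterol synthesis genes 0 of 15 and a median of -0.02. Ion channel and calcium handling genes had 0 of 23 called and a median of -0.16. The arrays of 8 of these 23 did not overlap in the lower direction and those of 2 in the higher, against 9.91% and 9.96% of all clusters. Against untreated muscle 11 of the 23 were called higher with prednisolone, as were 3.22% of all clusters. The macrophage marker Cd68 read 15.30, 14.66 and 15.91 in eplerenone plus lisinopril arrays and 15.26, 14.72 and 15.45 in prednisolone arrays, with full overlap. Il1b, the proinflammatory interleukin, read 6.28, 6.30 and 6.49 in eplerenone plus lisinopril arrays, 5.90, 6.22 and 6.31 in prednisolone arrays and 8.09, 12.87 and 11.72 in untreated arrays, so both treatments lay below all untreated arrays and overlapped each other. Adipocyte markers had 0 of 17 called, with mean signals of 9.71 to 10.66 in eplerenone plus lisinopril arrays and 9.57 to 11.73 in prednisolone arrays.

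**Figure D5:**
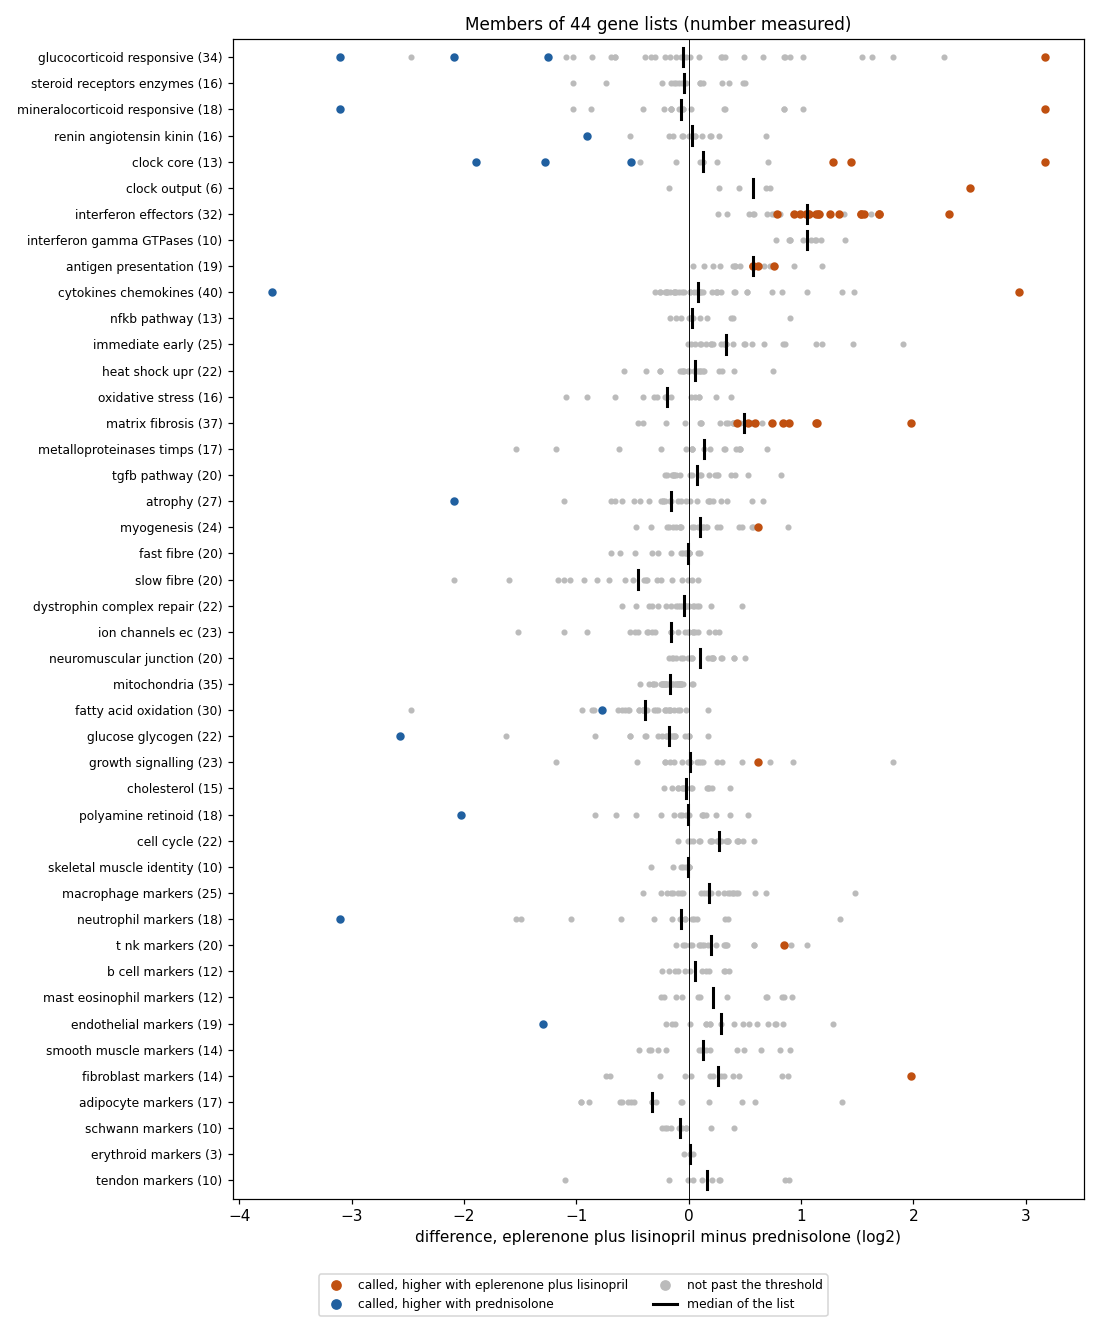
Each row is 1 of the 44 gene lists with its number of measured genes, each point a gene's difference (log2, eplerenone plus lisinopril minus prednisolone), and the black bar the list's median. Coloured points are called genes; the interferon list sits around 1.05 with 17 called and the matrix list around 0.49 with 9.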

How the data were processed

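RNA of whole quadriceps from 12 mice was hybridised to single-channel Affymetrix arrays, per the labels' protocols. The authors deposited log2 signals; the submitters' processing notes name RMA (which adjusts background, quantile-normalizes arrays and summarises probes), Affymetrix Expression Console and Transcriptome Analysis Console. Versions and the genome build were not given in the sources used here. Values run from 1.61 to 19.93, and 1.27% to 1.34% of them exceed 16, the largest log2 value a 16-bit scanner can give, so they were rescaled in a way the notes leave out, and a fold is a fold on the deposited scale. Neither detection values nor scan batches were used here, and 3 arrays a group limit the precision.

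The tested clusters have exactly 1 symbol in the platform's probe annotation (30412; 2118 with several symbols and 33057 with none were left out), and 827 symbols were updated through the gene ID. A limma 3.58.1 model of group means covered all 12 arrays (R 4.3.3 and its package data.table, at version 1.17.8), with two-sided moderated tests (residual degrees of freedom 8, prior 2.94; median SE 0.13) and Benjamini-Hochberg adjustment. The code was tested on simulated data. With 3 arrays against 3 an exact permutation test cannot go below 0.1. A gene in a list stands as its brightest cluster. Named were the 15 widest differences in each direction among called clusters with non-overlapping arrays (leaving out predicted-gene, small RNA and receptor-family symbols), the called members of each list or else the 4 smallest p, and 20 fixed genes. Uncalled members of lists that hold a called one were picked as examples after their values were seen. The comparison, lists and named genes were chosen with earlier results of these data known. Alternatives changed the scaling, dim-cluster filter, clusters tested, variance model, arrays in the fit, array weights, replicate block and single arrays.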

Additional observations from a re-analysis of the deposited data

Results flagged for a closer look

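Among the 35175 clusters that the probe table pairs with several symbols or none, and which enter no comparison above, 15 were called in a limma fit of their own, 4 higher and 11 lower with eplerenone plus lisinopril than with prednisolone. Their differences ran from -2.48 to 2.11 on the log2 scale. They are given because they carry a signal outside the tested genes, and no gene is named for them.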

How the results depend on the processing

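The counts moved with the processing. Against 114 higher and 71 lower clusters, leaving out the dimmest 40% gave 212 and 123, array weights 232 and 148, 74 higher when every deposited cluster was tested, a fit without variance moderation 39 and 19, and a fit of the 6 arrays alone 28 lower. Leaving out 1 array at a time gave 19 to 77 higher and 8 to 60 lower, and 209 to 264 clusters past a fold of 2 (211 with all arrays, 367 over every deposited cluster). The replicate block gave 53 and 29. Replicate numbers do not pair the mice by any label, and deviations of same-numbered arrays correlated at -0.19, 0.06 and 0.16, so this paired fit is given once and a call lost under it is not read as a weaker effect. The interferon list had 2 called members without moderation, 10 with the replicate block and 24 with medians made equal or without the dimmest 40%, and the matrix list 4, 4 and 12. Of 2381 values of called genes under the 16 alternatives, 1361 kept their side of the threshold, 1020 did not, and 0 changed sign. The cause was not tested. The arrays of called genes did not overlap, so leaving out 1 array could not change a sign. Settings of the variance model, clusters tested, dim-cluster filter, arrays in the fit and replicate block left the differences as they were. The lack of sign changes is therefore no check of direction in those settings. Sign changes were limited to 8 genes that were not called. With 1 array left out Cd68 ran from -0.16 to 0.46, Alas2 from -0.07 to 0.16, Agtr1a from -0.02 to 0.06, Klf15 from -0.05 to 0.07, Slc4a1 from -0.03 to 0.06, Nr3c2 from -0.10 to 0.02 and Myh3 from -0.51 to 0.19. Quantile normalization put Agtr1a at -0.01, Klf15 at -0.02 and Ckm at 0.04, and array weights put Slc4a1 at -0.01.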
